A study of Homo sapiens with 22 samples.

Results

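Divergent promoters are stretches of DNA from which a pair of neighbouring protein-coding genes is read in opposite directions. They were taken here as every pair of coding genes whose canonical GENCODE transcription start sites (TSSs) on hg19 lay on opposite strands, pointed away from each other and were at most 1000 bp apart. The region of a pair was the span between both TSSs plus 500 bp on each side, that is, into the first 500 bp of each gene. This gave 974 pairs, which held 1877 of the 19881 canonical coding genes (9.44%) at 904 separate loci, since 137 pairs overlapped another pair. The median span was 234 bp, the quartiles were 122 and 400 bp, and 617 pairs (63.3%) were within 300 bp. The other 18004 coding promoters were each given a window of the same length as the median region, 1235 bp, and 2052 of them had a long noncoding RNA (lncRNA) start on the opposite strand within 1000 bp upstream. N-MYC and WDR5 had been mapped by ChIP-seq in CHP-134 and IMR-32, human neuroblastoma cell lines in which the gene for N-MYC is amplified. CHP-134 cells had been given DMSO or a compound for 4 h, with 3 libraries of each antibody per treatment. IMR-32 cells had no treatment and gave 2 libraries of each antibody. Every library pooled 3 immunoprecipitations, and the study's methods call its ChIP-seq experiments independent repeats, while the labels do not say whether libraries of a group came from separate cultures, so part of the spread between libraries may be technical. The labels give the compound different names, and it is therefore not identified.

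N-MYC binds DNA as a dimer with MAX, through a short sequence called the E-box, and its favoured form reads CACGTG on both strands. WDR5 is a chromatin protein that scaffolds histone methyltransferase complexes and that can hold MYC proteins at some of their genes. Divergent coding promoters are usually rich in CpG, seldom carry a TATA box, and often join genes of housekeeping roles such as DNA repair, mitochondrial function and protein synthesis.

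The inter-TSS spans of 8 pairs show the range of the data. The 3 pairs RPUSD4/FAM118B, DDX54/RITA1 and HNRNPDL/ENOPH1 carried strong N-MYC peaks and at least 1 E-box, which is in capitals. RPL9/LIAS, MED22/RPL7A and RPL35/ARPC5L were among the strongest WDR5 pairs, and their spans hold no E-box. COL4A1/COL4A2 and SURF1/SURF2 had no peak in any list. Each span is the plus strand of GRCh37 (hg19) without the TSS bases, so the first gene of a name starts at the left end and is read to the left, and the second starts at the right end and is read to the right.
RPUSD4/FAM118B, chr11:126081546-126081676: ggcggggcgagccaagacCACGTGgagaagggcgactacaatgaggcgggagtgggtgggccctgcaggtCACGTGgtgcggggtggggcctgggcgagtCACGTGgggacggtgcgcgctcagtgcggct
DDX54/RITA1, chr12:113623284-113623525: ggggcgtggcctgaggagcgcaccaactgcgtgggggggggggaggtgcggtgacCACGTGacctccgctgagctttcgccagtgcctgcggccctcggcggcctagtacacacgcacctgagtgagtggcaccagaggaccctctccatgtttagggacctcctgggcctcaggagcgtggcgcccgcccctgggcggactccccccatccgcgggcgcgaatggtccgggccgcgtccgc
HNRNPDL/ENOPH1, chr4:83351616-83351742: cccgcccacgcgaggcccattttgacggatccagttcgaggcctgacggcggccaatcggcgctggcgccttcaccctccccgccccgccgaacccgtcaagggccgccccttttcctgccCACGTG
RPL9/LIAS, chr4:39460543-39460675: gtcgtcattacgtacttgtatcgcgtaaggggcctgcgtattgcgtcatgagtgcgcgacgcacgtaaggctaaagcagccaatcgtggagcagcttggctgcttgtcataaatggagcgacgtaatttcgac
MED22/RPL7A, chr9:136214987-136215072: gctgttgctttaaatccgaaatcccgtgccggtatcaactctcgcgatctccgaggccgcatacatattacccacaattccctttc
RPL35/ARPC5L, chr9:127624237-127624408: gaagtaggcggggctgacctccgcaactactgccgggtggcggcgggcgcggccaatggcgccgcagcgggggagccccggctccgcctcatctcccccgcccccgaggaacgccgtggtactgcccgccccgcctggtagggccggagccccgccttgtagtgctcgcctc
COL4A1/COL4A2, chr13:110959505-110959630: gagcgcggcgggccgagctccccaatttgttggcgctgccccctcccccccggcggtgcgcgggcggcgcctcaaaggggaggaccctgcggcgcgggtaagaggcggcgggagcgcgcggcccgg
SURF1/SURF2, chr9:136223364-136223425: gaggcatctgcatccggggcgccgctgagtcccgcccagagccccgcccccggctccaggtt

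A peak list was available for each of the 16 N-MYC and WDR5 libraries. N-MYC lists held 9125 to 15286 peaks in DMSO, 2964 to 12313 with the compound and 5242 to 8286 in IMR-32. WDR5 lists held 1671 to 4891 peaks in DMSO and 1258 to 1693 in IMR-32. With the compound, WDR5 lists held 5973, 15 and 401 peaks. The WDR5 list of 15 peaks and the N-MYC list of 2964 peaks, both replicate 2 of the compound, and the WDR5 list of 401 peaks, replicate 3, stood apart from their groups. Peak lists hold no read counts, so the depth behind a peak is unknown.

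Divergent regions carried N-MYC and WDR5 peaks more often than other coding promoters in all 16 lists. With DMSO, 710, 481 and 611 of the 974 regions held an N-MYC peak in replicates 1 to 3, a share of 61.7% ± 11.8 (SD, n = 3). Among the other coding promoters of the same lists the share was 32.3% ± 6.42. The ratio of both shares was 1.89, 1.91 and 1.94, so it varied far less than the shares themselves. In IMR-32, 493 and 348 regions held an N-MYC peak, 43.2% ± 10.5 (n = 2) against 17.7% ± 4.64, a ratio of 2.45 ± 0.0477.

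WDR5 showed the same order at lower levels. With DMSO, 320, 128 and 132 regions held a WDR5 peak, 19.8% ± 11.3 against 9.12% ± 5.24 of other coding promoters, and the ratio was 2.19 ± 0.21. Replicate 1 had by far the longest list, and without it the difference of 10.7 points became 7.24. In IMR-32, 169 and 120 regions held a WDR5 peak, 14.8% ± 3.56 against 5.18% ± 0.919, with a ratio of 2.85 ± 0.181.

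**Figure D1:**
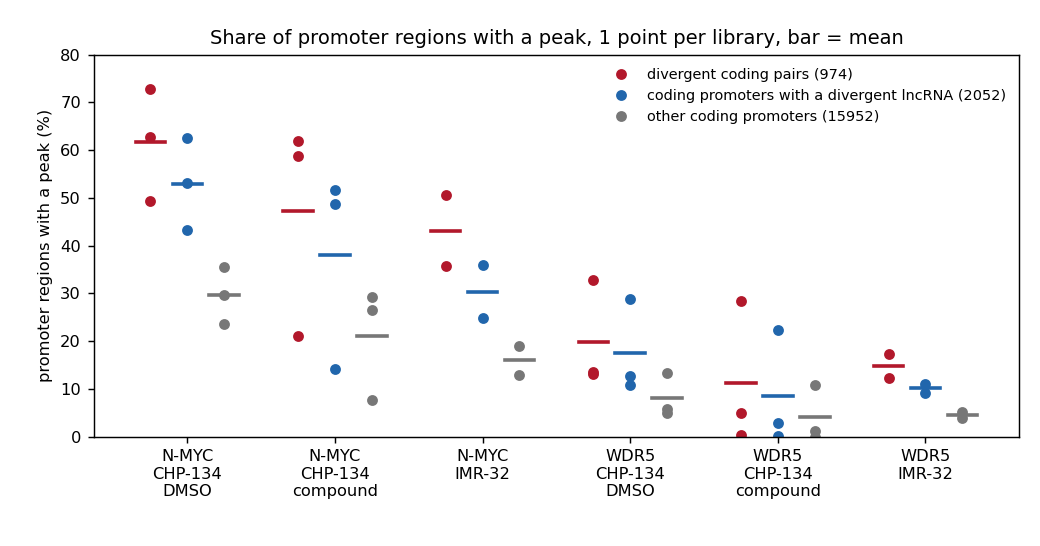
The plot shows, on the y axis, the percentage of promoter regions with a peak in each library (points) and the mean of each group (bars), for divergent coding pairs, coding promoters with a divergent lncRNA and the remaining coding promoters. In every library the divergent pairs lie highest, for example at 72.9% against 62.5% and 35.6% for N-MYC in DMSO replicate 1.

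Promoters that start a lncRNA in the opposite direction came close to the coding pairs. Their share with an N-MYC peak was 53.0% in DMSO on average, 8.71 ± 2.28 points under that of the coding pairs, and 30.4% in IMR-32, where the distance was 12.8 ± 2.74 points. For WDR5 the distance was 2.39 ± 1.90 points in DMSO and 4.70 ± 2.32 in IMR-32. The coding pairs were higher in each of the 16 lists as deposited. When every WDR5 list was cut to its strongest 1258 peaks, the ratio of both shares in the DMSO lists ran from 0.855 to 1.22, so the order of these classes for WDR5 was not kept in every DMSO library.

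Base composition differed between the classes and was set beside the shares. The median ratio of observed to expected CpG was 0.768 in divergent regions, 0.793 at coding promoters with a divergent lncRNA and 0.665 at the remaining ones. Among regions of like CpG ratio, under 0.6, 0.6 to 0.8, and 0.8 and over, N-MYC peaks in DMSO were more frequent at divergent pairs in each class, by 19.8 ± 6.63 points in the lowest and 16.5 ± 4.69 in the middle one. In the highest class the shares were 73.5% ± 9.52 and 58.5% ± 9.37. WDR5 differed by 7.88 ± 4.81 and 6.44 ± 2.93 points in the upper classes, but by 1.84 ± 3.35 in the lowest, where 1 library had the opposite sign. By span length, N-MYC peaks in DMSO were in 53.8% ± 10.7 of regions whose TSSs were at most 100 bp apart. They were in 64.7% ± 11.7 of those over 500 bp. The short spans were lower within each DMSO list, at 62.9%, 41.9% and 56.5% against 76.6%, 53.2% and 64.3%. WDR5 in IMR-32 was in 9.68% ± 2.28 and 20.8% ± 7.03, and its 2 libraries at the short spans were both under those at the long ones. N-MYC with the compound was in 37.1% ± 21.5 and 54.6% ± 24.5. Within each compound list the short spans were again lower, at 47.3%, 12.4% and 51.6% against 67.3%, 26.3% and 70.2%. At the edge of the rule, the 46 pairs over 800 and up to 1000 bp apart held N-MYC in 60.1% of regions in DMSO, and 32 pairs just outside it, over 1000 and up to 1200 bp apart, in 65.6%. Regions lengthen with the span, so those of long spans can catch a peak more readily, and this was not adjusted for.

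The peaks themselves were about as strong as those of other promoters. Strength was read as the percentile of a peak's fold enrichment within its own list, since folds cannot be compared between lists. In DMSO the median N-MYC percentile was 57.8 ± 3.52 at divergent regions and 54.3 ± 2.22 at other coding promoters, a difference of 3.49 ± 2.19 that had the same sign in all 3 lists. WDR5 percentiles differed by -0.24 ± 1.37 in DMSO, within the spread, and by -4.56 ± 2.57 in IMR-32.

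Consensus peaks, present in at least 2 lists of a group, gave the same order. In CHP-134 with DMSO, N-MYC was at 597 divergent regions (61.3%), against 32.6% of the other coding promoters. WDR5 was at 147 regions (15.1%, against 6.43%), and a cobound site, where an N-MYC and a WDR5 consensus peak overlapped, lay in 134 regions (13.8%, against 5.91%). In IMR-32, N-MYC was at 310 regions (31.8%, against 11.9%), WDR5 at 95 (9.75%, against 3.67%) and a cobound site at 62 (6.37%, against 1.74%). With the compound, N-MYC was at 504 regions (51.7%, against 24.8%), and at 51.4% (against 24.5%) without replicate 2. Without DMSO WDR5 replicate 1, the WDR5 and cobound counts in CHP-134 were 76 and 70.

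Most WDR5 regions also held N-MYC. In CHP-134 with DMSO 133 of the 147 WDR5 regions had an N-MYC consensus peak (90.5%), as did 90.3% of other coding promoters with WDR5. In IMR-32 it was 66 of 95 (69.5%), against 47.7% elsewhere. The lines shared 289 N-MYC regions, 48.4% of those of CHP-134 and 93.2% of those of IMR-32, where other coding promoters gave 35.2% and 95.9%. For WDR5 they shared 69 regions, 46.9% and 72.6%, near the 40.1% and 70.3% of other coding promoters. Over all lists, 154 pairs (15.8%) had N-MYC in each of the 8 N-MYC lists, against 5.75% of other coding promoters, and 168 (17.2%) had it in none, against 54.4%. The pairs with no WDR5 peak in any list numbered 483 (49.6%, against 75.6%).

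In DMSO and in IMR-32, N-MYC summits were nearer than WDR5 summits both to the middle of the span and to the nearest TSS. The strongest N-MYC summit of a region was between both TSSs in 48.1% ± 0.423 of regions in DMSO and 50.4% ± 2.49 in IMR-32, although the spans make up 22.9% of the length. Per kb this was 3.12 ± 0.0531 times the density in the flanks in DMSO and 3.43 ± 0.341 times in IMR-32. For WDR5 the share was 32.6% ± 4.21 in DMSO and 28.3% ± 2.09 in IMR-32, with density ratios of 1.64 ± 0.302 and 1.33 ± 0.137. The ranges of both proteins did not overlap in DMSO or in IMR-32. With the compound, N-MYC shares were 46.9%, 47.4% and 47.3%, while WDR5 was at 25.5% in the longest list and at 53.1% (26 of 49 summits) in the list of 401 peaks, above every CHP-134 N-MYC library. The median distance from the middle of the span was 141 ± 1.44 bp for N-MYC and 228 ± 16.5 bp for WDR5 in DMSO. To the nearest TSS it was 85 ± 10.1 bp for N-MYC and 152 ± 10.3 bp for WDR5 in DMSO. In IMR-32 the distances to the nearest TSS were 77 ± 1.41 and 159.5 ± 2.12 bp.

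The shares of summits between the TSSs differed with span length for both proteins, as did the part of the region that the span makes up. Where the TSSs were at most 100 bp apart, 19.3% ± 5.73 of N-MYC summits in DMSO fell between them, and where they were over 500 bp apart, 69.0% ± 2.26 did. WDR5 went from 13.2% ± 10.7 to 60.3% ± 10.7. Since the flanks were fixed at 500 bp, the span's part of the length also rose between these classes, from 6.34% to 41.4%. The widest gap between both proteins was at spans over 200 and up to 300 bp, 53.3% ± 3.02 for N-MYC and 25.7% ± 6.40 for WDR5. A second summit of the same list was rare, in 3.31% ± 1.10 of N-MYC regions and 2.96% ± 3.05 of WDR5 regions. The lists gave about 1 summit per peak and divergent N-MYC peaks had a median width of 578 to 697 bp in DMSO, wider than most spans, so summits close together may share a peak. At the other coding promoters, 61.5% ± 0.559 of N-MYC summits and 50.8% ± 3.19 of WDR5 summits were upstream of the TSS in DMSO.

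**Figure D2:**
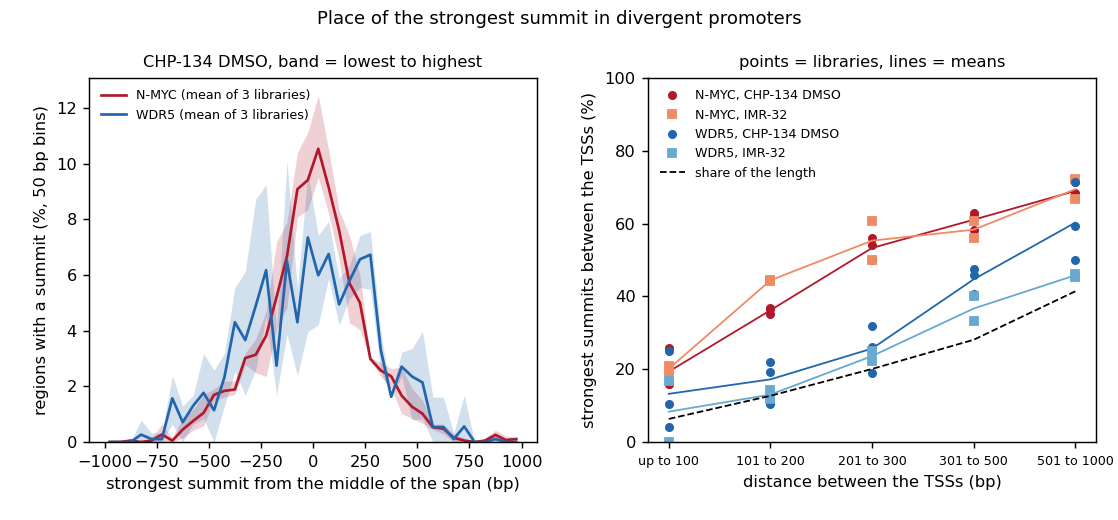
Left, the distance in bp of the strongest summit from the middle of the span (x axis) against the percentage of regions in 50 bp bins, as the mean of 3 DMSO libraries with the range as a band. Right, the percentage of strongest summits between the TSSs by span length, per library and as means, with the share of the length as a dashed line: N-MYC lies at 53.3% and WDR5 at 25.7% in DMSO for spans over 200 and up to 300 bp.

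The side of the middle on which a summit lay was mostly kept between libraries. Of 413 regions with an N-MYC summit in all 3 DMSO lists, 320 (77.5%) had every summit toward the same gene, and of 66 such WDR5 regions 51 (77.3%) did. Between lines, pairs of libraries agreed at 78.9% to 82.0% of regions for N-MYC and at 79.1% to 95.8% for WDR5. Agreement of 3 libraries is harder to reach than agreement of 2, so shares of the 2 kinds cannot be compared directly. In CHP-134, N-MYC and WDR5 lay toward the same gene at 63.8% to 74.8% of regions over the 9 pairs of DMSO libraries, with a median distance between both summits of 102 to 164 bp. These pairs share libraries, so the ranges are a description. The strands were used about equally, since 51.6% ± 2.39 of N-MYC summits and 50.7% ± 1.02 of WDR5 summits in DMSO lay toward the plus-strand gene.

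E-boxes marked both the frequency and the place of N-MYC peaks. The letters CACGTG read the same on both strands. They were in 242 divergent regions (24.8%), in 20.8% of other coding promoters and in 22.9% of those with a divergent lncRNA. They were concentrated between the TSSs, at 0.519 per kb against 0.168 per kb in the flanks, while other coding promoters had 0.348 per kb over the same distance upstream of the TSS. In DMSO, N-MYC was at 86.2% ± 6.59 of divergent regions with an E-box and at 53.6% ± 13.5 of those without, a difference of 32.7 ± 7.17 points. Other coding promoters differed by 26.5 ± 1.99 points. In IMR-32 the shares at divergent regions were 68.4% ± 10.8 and 34.8% ± 10.4. Divergent regions without any E-box were still occupied about as often as other coding promoters with one, 53.6% against 53.2% in DMSO.

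The strongest N-MYC summit followed the E-box. It lay within 100 bp of an E-box in 69.7% to 73.5% of occupied E-box regions in the DMSO lists and 73.8% and 74.9% in IMR-32. The median distance was 36.5 to 42.5 bp in DMSO and 30.5 and 33.5 bp in IMR-32. In the 117 regions with an E-box between the TSSs, 74.6% ± 0.354 of the strongest summits were between the TSSs too. In the 125 regions with E-boxes in a flank alone it was 22.8% ± 3.09, and in the 732 with no E-box 47.3% ± 0.573. WDR5 summits were farther from E-boxes, a median of 125 ± 24.1 bp in DMSO, and 56.5% ± 6.09 were between the TSSs where an E-box was there, 30.6% ± 6.01 where E-boxes were in a flank alone and 21.4% ± 4.72 where the region had none. The ranges of the last 2 overlapped between libraries, but within each list the flank share was higher. It was 32.7%, 35.3% and 23.8%, from 49, 17 and 21 summits, against 25.4%, 22.6% and 16.2%. WDR5 peaks were at 43.3% ± 14.4 of regions with an E-box between the TSSs and at 15.4% ± 10.2 of those with none.

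**Figure D3:**
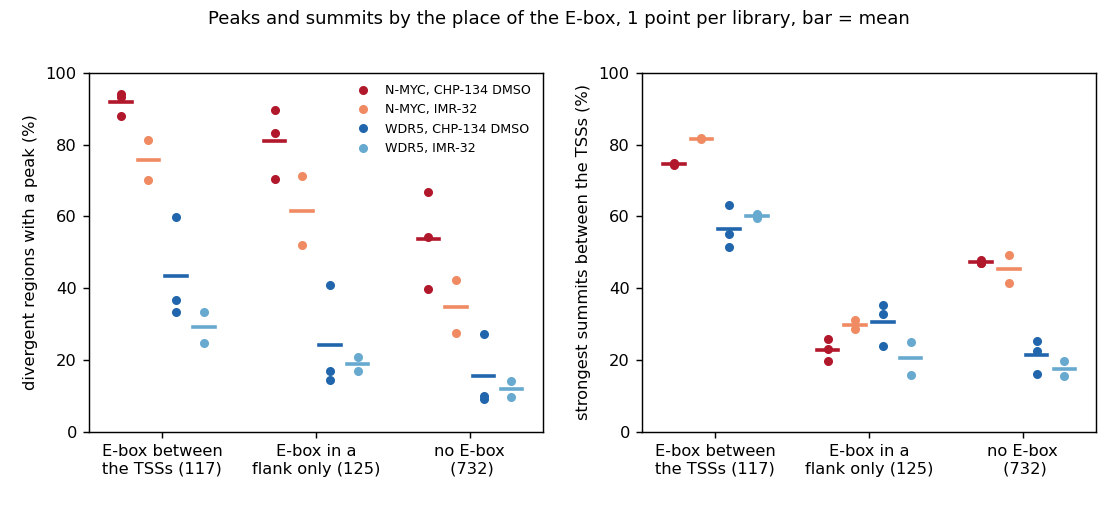
Left, the percentage of divergent regions with a peak, and right, the percentage of strongest summits between the TSSs, by where the region holds an E-box, with 1 point per library and the mean as a bar. For N-MYC in DMSO the left panel runs from 91.7% (E-box between the TSSs) to 53.6% (none) and the right panel is lowest, at 22.8%, where E-boxes are in a flank alone.

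Other short motifs were counted on both strands of the whole region. The ETS-family motif CCGGAAG was in 48.3% of divergent regions and 21.6% of other coding promoters. TATAAA was in 19.1% of divergent regions and 32.7% of other coding promoters. Among those with a divergent lncRNA, CCGGAAG was in 31.97% and TATAAA in 21.4%, so for TATAAA this class was close to the coding pairs. The ETS motif did not separate occupied pairs in DMSO, since N-MYC consensus peaks were at 61.9% of pairs with it and 60.7% without. In IMR-32 these shares were 29.4% and 34.1%. At other coding promoters in DMSO the shares were apart, 46.3% with the motif and 28.8% without. CACGCG, an E-box variant, was in 45.2% of divergent regions, of which 74.1% held N-MYC, against 50.7% of those that lacked it. It was in 33.5% of other coding promoters and in 46.6% of those with a divergent lncRNA. These motifs differ in CpG content, and their part in the shares was not tested.

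Genes of protein synthesis, DNA repair and mitochondria were in the pairs more often than coding genes as a whole, 9.44% of which were. The shares were 15.9% for cytosolic and 33.3% for mitochondrial ribosomal protein genes and 29.5% for DNA repair genes. Every other gene list was above 9.44% too, the lowest being nucleotide synthesis at 12.5%. Of 15 regions with a cytosolic ribosomal protein gene, 14 had N-MYC and 10 had WDR5 in CHP-134 with DMSO, and 12 and 9 in IMR-32. Of 39 regions with a DNA repair gene, 30 had N-MYC and 14 had WDR5 (18 and 6 in IMR-32). Of 28 regions with a splicing gene, 17 and 9 did. Over all 974 regions the shares in DMSO were 61.3% and 15.1%, so ribosomal protein pairs stood at 66.7%, DNA repair pairs at 35.9% and splicing pairs at 32.1% for WDR5. At the other coding promoters of the same lists WDR5 was at 59.5%, 23.3% and 19.5%.

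The lists that follow were near or under the WDR5 share of all regions, 15.1% in DMSO. Of 28 regions with a mitochondrial ribosomal protein gene, 22 had N-MYC (78.6%, against 61.3% of all regions) and 3 had WDR5 (10.7%) in DMSO. For translation factors and tRNA synthetases it was 18 and 3 of 20, a WDR5 share close to that of all regions, for chaperones 11 and 1 of 14, and for cell cycle and DNA replication 19 and 4 of 25. Pairs of oxidative phosphorylation genes had N-MYC at 15 of 31 regions and WDR5 at 3, and the 10 proteasome regions had 5 and 0. Replication-dependent histone pairs were among the least occupied, with N-MYC at 4 of 11 regions and WDR5 at none, although at the other 42 histone promoters no N-MYC consensus peak was listed. The 3 nucleotide synthesis regions all had N-MYC. The 3 tissue-restricted pairs had neither protein.

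**Figure D4:**
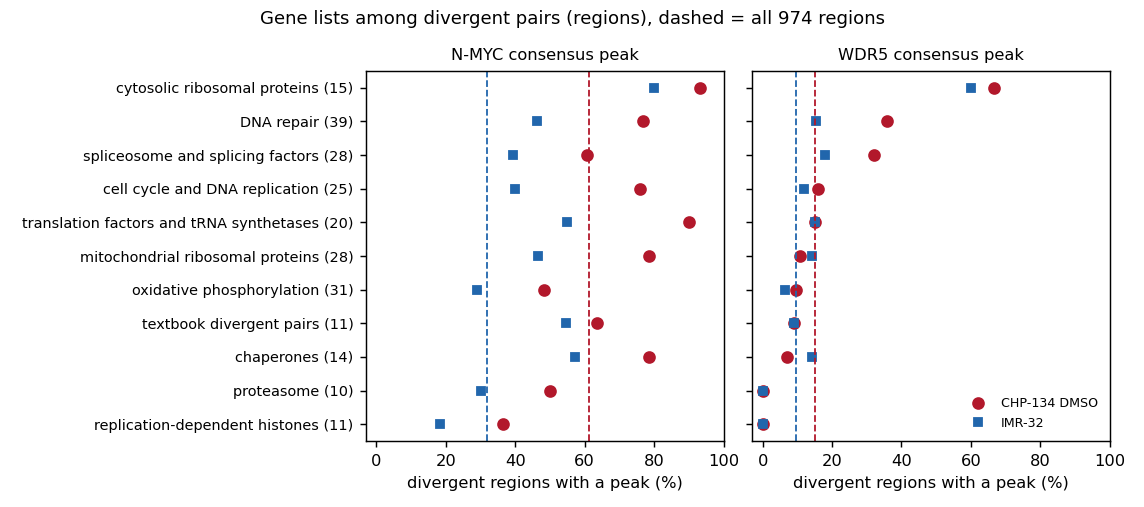
The percentage of divergent regions with a consensus peak of N-MYC (left) and WDR5 (right), for each gene list with at least 10 regions (number in parentheses), in CHP-134 with DMSO (circles) and IMR-32 (squares). Dashed lines give all 974 regions, 61.3% and 31.8% for N-MYC and 15.1% and 9.75% for WDR5. Ribosomal protein pairs lie highest for WDR5, at 66.7% and 60.0%.

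Ribosomal protein pairs placed WDR5 on one gene. For 14 pairs (RPS28, which has 2 partners, was counted once) the distance of the strongest summit from the TSS of the ribosomal protein gene was measured. In DMSO, WDR5 summits were past that TSS, inside the ribosomal protein gene, in 9 of 10, 9 of 9 and 9 of 10 pairs, and in IMR-32 in 9 of 9 in both libraries. The median was 145 to 154 bp into the gene in DMSO and 133 to 151 bp in IMR-32. None of these summits lay in the partner gene, and the exception was RPS27A, paired with CLHC1, where WDR5 was 21 and 17 bp upstream. At single ribosomal protein promoters the median was 141 to 144 bp in DMSO, nearly the same place.

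Many of these were also among the strongest WDR5 sites of the divergent pairs, although RPL27A, FAU, RPS25 and RPS28 had no WDR5 peak in DMSO or IMR-32. Single ribosomal protein promoters were about as strong. Their median WDR5 percentiles in DMSO were 98.8, 96.6 and 97.7, against 98.7, 98.9 and 96.6 at the pairs. Of the 10 divergent pairs with the highest mean WDR5 percentile over the DMSO lists, 8 held a ribosomal protein gene: RPL7/RDH10, MED22/RPL7A, RPL9/LIAS, NKIRAS1/RPL15, VPS52/RPS18, RPL18/SPHK2, RPL35/ARPC5L and RPL12/LRSAM1. At RPL9, whose partner LIAS makes lipoic acid synthase, the WDR5 fold was 72.8, 69.0 and 42.5 in DMSO and 214 and 150 in IMR-32. At RPL7A it was 44.6, 62.6 and 73.3, and 239 and 142. Their summits were 145 to 177 bp past the RPL9 TSS and 138 to 147 bp past the RPL7A TSS in those 5 libraries, although the TSSs of these pairs are 134 and 87 bp apart.

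The other 2 of the 10 were COG4/SF3B3 and DDX31/GTF3C4. SF3B3 encodes a subunit of the splicing factor SF3B, and WDR5 lay 134, 146 and 149 bp past its TSS in DMSO and 125 and 114 bp in IMR-32. N-MYC summits were on the same side, 85 to 126 bp past the SF3B3 TSS in DMSO and 174 to 180 bp in IMR-32. At DDX31/GTF3C4, an RNA helicase and a subunit of transcription factor TFIIIC, the proteins were apart. WDR5 lay 153 to 211 bp upstream of GTF3C4 in those 5 libraries, while N-MYC lay within 72 bp of the DDX31 TSS.

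At the ribosomal protein pairs N-MYC lay on the ribosomal protein gene in DMSO and in IMR-32, and less so with the compound. N-MYC peaks were at 14, 11 and 13 of the 14 pairs in DMSO, and their strongest summits were past the TSS of the ribosomal protein gene in 11 of 14, 9 of 11 and 12 of 13. In IMR-32 this held for 9 of 12 and 9 of 11. With the compound, N-MYC peaks were at 9, 2 and 10 pairs and their summits were past that TSS in 3 of 9, 0 of 1 and 3 of 10, since 1 peak of replicate 2 had its summit outside the region. The median place was 89.5, 102 and 105 bp inside the gene in DMSO, and 59, 233 and 59 bp upstream of it with the compound. No library of one treatment overlapped the other in this median or in the count of pairs with a peak, with and without compound replicate 2. Beside these, regions with an N-MYC peak numbered 710, 481 and 611 of 974 in DMSO and 573, 205 and 603 with the compound, which do overlap.

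The same order was seen at the 74 single ribosomal protein promoters, in other regions of the same lists. N-MYC peaks were at 66, 62 and 63 of them in DMSO and at 41, 17 and 40 with the compound. Summits downstream of the TSS made up 80.3%, 75.8% and 76.2% in DMSO and 41.5%, 41.2% and 57.5% with the compound. Over all divergent regions the share of N-MYC summits between the TSSs was nearly alike, 48.1% ± 0.423 in DMSO and 47.2% ± 0.234 with the compound (47.1% ± 0.231 without replicate 2).

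Single pairs show these places. At RPL18/SPHK2, N-MYC summits were 50, 102 and 108 bp inside RPL18 in DMSO, and 254, 233 and 104 bp upstream of it with the compound, between both TSSs. At RPL9/LIAS, summits 95, 118 and 130 bp inside RPL9 in DMSO were followed by no peak in 2 compound lists and by a summit on the LIAS side in the other one. RPL12/LRSAM1 had N-MYC in all 3 DMSO lists and in no compound list. RPS28 was unlike these, with summits 70 and 23 bp upstream and 31 bp inside in DMSO, and 59 and 10 bp upstream in the 2 compound lists that held it.

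WDR5 at these pairs ranked lower in the longest compound list, the single one with enough peaks to compare. In that list of 5973 peaks WDR5 was at 8 of the 14 pairs with a median percentile of 51.8, while it was 96.6 to 98.9 in the 3 DMSO lists. The single ribosomal protein promoters ranked lower there too, with a median percentile of 63.2 against 96.6 to 98.8 in DMSO. At RPL7A the fold in the longest compound list was 4.60, at the 68.1 percentile, and at RPL15 4.40, at the 62.3 percentile. RPL9 was at the 91.7 percentile in that list and RPS18 at the 11.9 percentile. The other compound lists held 1 ribosomal protein pair each, RPL7 in that of 15 peaks and RPL35 in that of 401. Where it was found in the longest list WDR5 kept its place, with 7 of 8 summits past the TSS of the ribosomal protein gene.

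**Figure D5:**
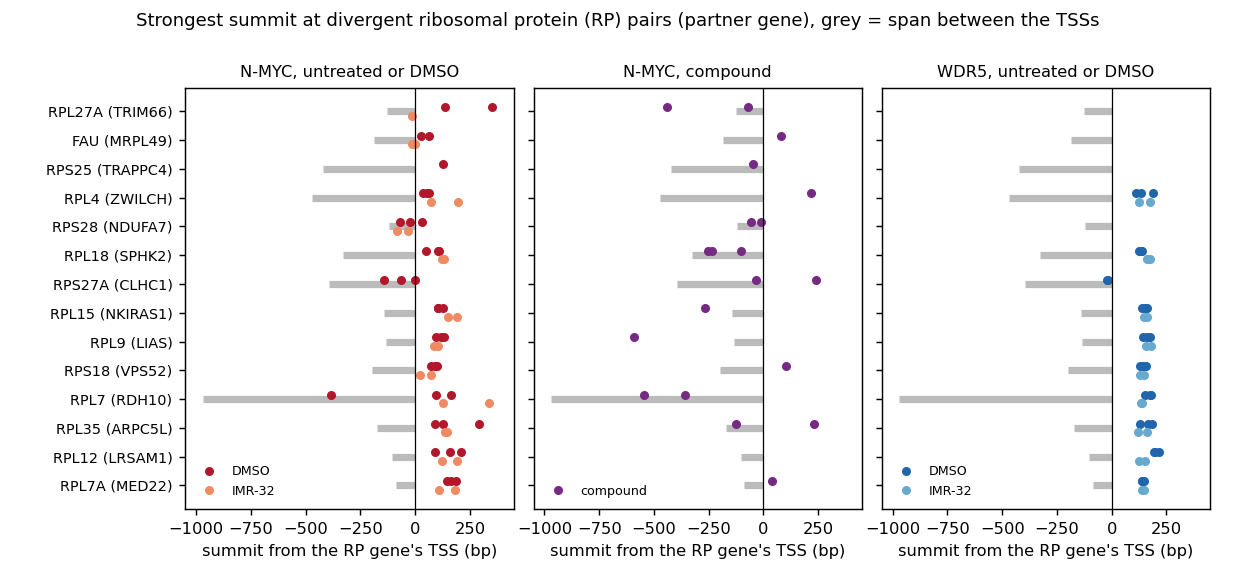
For 14 divergent pairs with a ribosomal protein gene (partner in parentheses), the x axis gives the distance in bp of the strongest summit from the TSS of the ribosomal protein gene, positive inside that gene, with 1 point per library. Grey bars mark the span to the partner's TSS. N-MYC in DMSO or IMR-32 and WDR5 lie mostly to the right of 0, and N-MYC with the compound lies to the right in 3 of 9, 0 of 1 and 3 of 10 pairs.

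No pair was among the 10 strongest for both N-MYC and WDR5. These were drawn from 438 pairs ranked for N-MYC and 73 for WDR5, and the overlap was not tested. Of the 10 pairs with the highest mean N-MYC percentile in DMSO, 9 held an E-box in the region, compared with 2 of the 10 for WDR5. RPUSD4/FAM118B, whose first gene encodes a mitochondrial RNA pseudouridine synthase, was the only pair with a peak in all 16 lists, with N-MYC folds of 24.5, 27.3 and 24.3 in DMSO and a mean percentile of 99.9. Its span holds 3 E-boxes, and 7 of its 8 N-MYC summits were between the TSSs, the other being 7 bp inside RPUSD4. With the compound its folds were 19.9, 17.2 and 27.3, and it had WDR5 in all 8 WDR5 lists, with folds of 6.59 to 12.8.

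OSGEP/APEX1 joins a tRNA modification enzyme and the apurinic endonuclease of base excision repair. N-MYC folds there were 25.3, 19.6 and 23.1 in DMSO, 25.7, 11.5 and 24.2 with the compound and 22.4 and 20.2 in IMR-32, and all 8 summits were 15 to 47 bp upstream of APEX1. At CCDC47/DDX42, which holds an RNA helicase gene, the 8 summits fell within 21 bp of each other, 241 to 262 bp from the CCDC47 TSS, in both lines and both treatments. GNAT2/AMPD2, with the adenosine monophosphate deaminase gene AMPD2, was the pair among the 10 with N-MYC in all 8 lists, percentiles of 99.3, 97.3 and 99.2 in DMSO, and no WDR5 peak in any list. The remaining pairs of the 10 were C1orf43/UBAP2L, NOL8/CENPP, HNRNPA2B1/CBX3, MTERF3/PTDSS1, EARS2/UBFD1 and HNRNPDL/ENOPH1.

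In all, 21 of the 974 pairs had a peak in at least 14 of the 16 lists. Of these, 17 held an E-box, which 24.8% of all divergent regions held. Other coding promoters were not counted in this way. The 21 pairs included DDX54/RITA1, which encodes a nucleolar RNA helicase and a regulator of Notch signalling, with 8 N-MYC and 6 WDR5 lists. There the N-MYC summits were on the DDX54 side of the middle and WDR5 summits past the RITA1 TSS, by 123, 105 and 171 bp in DMSO and 147 and 130 bp in IMR-32. At CBX5/HNRNPA1, a heterochromatin protein and a splicing regulator, WDR5 was 152 to 245 bp inside HNRNPA1 in those 5 libraries. N-MYC was on the same side in 2 of 3 DMSO libraries and 1 of 2 IMR-32 libraries.

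Textbook divergent pairs ranged from every N-MYC list to none. PPAT/PAICS, both enzymes of purine synthesis, and HSPD1/HSPE1, the mitochondrial chaperonins, had N-MYC in all 8 lists and an E-box. At PPAT/PAICS the N-MYC folds were 20.1, 7.68 and 12.4 in DMSO, and 7 of the 8 summits were 135 to 200 bp inside PAICS, the other lying in PPAT. TK1/AFMID, with the thymidine kinase gene, also had N-MYC in 8 lists, with folds of 8.21, 6.96 and 7.07 in DMSO and summits between both TSSs in each. NPAT/ATM, a histone gene activator and a DNA damage kinase, had N-MYC in 7 lists, between the TSSs each time, and no WDR5. PRKDC/MCM4, the DNA-dependent protein kinase and a subunit of the replicative helicase, had N-MYC in 7 and WDR5 in 6 lists, and ERCC8/NDUFAF2 had them in 6 and 2.

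Other textbook pairs were empty. COL4A1/COL4A2, the type IV collagen chains, TAP1/PSMB9 of antigen processing and SURF1/SURF2 had no peak in any of the 16 lists, and RECQL4/LRRC14 had a single N-MYC peak, in DMSO replicate 1. The ratio of observed to expected CpG was 0.856 at COL4A1/COL4A2 and 0.785 at SURF1/SURF2, both above the median of all divergent regions, and 0.686 at TAP1/PSMB9. Other pairs on the gene lists with no N-MYC peak in any list included COL4A4/COL4A3, AKAP3/NDUFA9, CMC4/BRCC3 and CYB5RL/MRPL37. Over all divergent regions, 168 (17.2%) had none. CYB5RL/MRPL37 is unlike the others in that its region holds an E-box. In all, 146 of the 974 pairs had no peak of either protein, which was not counted at other coding promoters.

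The share of divergent regions with a peak was lower with the compound, but the groups overlapped. For N-MYC it was 58.8%, 21.0% and 61.9%, a mean of 47.3% ± 22.8 against 61.7% ± 11.8 in DMSO, and without compound replicate 2 the difference of -14.4 points became -1.30. With each list cut to its strongest 2964 peaks, the shares were 21.4% ± 1.52 and 20.7% ± 0.873. For WDR5 it was 28.3%, 0.308% and 5.03%, against 32.9%, 13.1% and 13.6% in DMSO, a difference of -8.62 points that became -3.17 without compound replicate 2. Designs of 3 libraries against 3, or 3 against 2, cannot give an exact two-sided permutation p under 0.1, and none was computed.

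Of the 438 pairs with N-MYC in all 3 DMSO lists, 7 were in no compound list (1.60%, against 2.19% of the other coding promoters with N-MYC in all 3), and none of 202 pairs showed the opposite. Without compound replicate 2 the same 7 pairs were in no compound list, and 3 of 505 pairs showed the opposite (0.594%, against 0.455%). The 7, named after their values were seen, were ZMYND12/PPCS, PUS7L/IRAK4, SARS2/MRPS12, MRPL50/ZNF189, RPL12/LRSAM1 and NUDT1 with each of its partners, MRM2 and an unnamed gene. SARS2 encodes the mitochondrial seryl-tRNA synthetase, and MRPS12 and MRPL50 encode proteins of the mitochondrial ribosome. At SARS2/MRPS12 the N-MYC folds were low in DMSO, 3.80, 4.33 and 4.87.

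CHP-134 with DMSO and IMR-32 differed in the ratio to other promoters. For N-MYC it was 1.89 to 1.94 in CHP-134 with DMSO and 2.42 and 2.48 in IMR-32, and for WDR5 1.99 to 2.41 and 2.72 and 2.98, with no overlap for either. With the compound the N-MYC ratio was 2.02, 2.47 and 1.95, and with equal numbers of peaks 2.65, 2.47 and 2.13, which overlap IMR-32. With equal numbers of peaks the N-MYC ratio in DMSO and IMR-32 was 2.13 ± 0.0303 and 2.49 ± 0.0248, and that of WDR5 2.10 ± 0.340 and 2.80 ± 0.113. The lines also differed in sequencer and in single against paired sequencing, so line, treatment with DMSO and sequencing cannot be told apart. N-MYC was in all 3 DMSO lists and neither IMR-32 list at 74 of 438 pairs (16.9%), against 26.7% of other coding promoters with N-MYC in all 3, and 2 of 311 pairs showed the opposite (0.643%, against 1.87%). The 74 include AURKA/CSTF1, which holds the gene of a mitotic kinase, and CLHC1/RPS27A, both named after their values were seen. WDR5 was in all 3 DMSO lists and neither IMR-32 list at 15 of 73 pairs (20.5%, against 25.4% of other coding promoters), and in both IMR-32 lists and no DMSO list at 11 of 95 (11.6%), against 85 of 654 other coding promoters.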

How the data were processed

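ChIP-seq peak lists of 16 N-MYC and WDR5 libraries were used, and 6 IgG samples were not analysed here. Per the study's methods and the processing notes, Cutadapt (trimming), Bowtie2 (alignment, hg19) and MACS2 (peaks of single libraries, q of 0.05) were the tools of the authors. The control library, versions and depths are not given in the sources used here. Each deposited peak has a fold, the ratio of its signal to the local background, a −log10 p-value and a −log10 q-value, all from the authors' MACS2 run. The deposited score was not used, nor was the p-value. DiffBind, which the authors used for consensus peaks, was replaced by merging peaks found in at least 2 lists of a group.

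Canonical coding TSSs came from GENCODE 44 lifted to GRCh37, the build of the peaks. A region was occupied if a peak overlapped it by at least 1 bp. Another promoter's window ran from 500 bp downstream to 500 bp plus the median span upstream. The other promoters include 54 plus-strand ones that overlap a minus-strand coding gene head to head. Folds were turned into percentiles within a list. Values are means ± SD over libraries, and no p-values were computed. Named pairs were the textbook pairs that are members, the 10 with the highest mean N-MYC and the 10 with the highest mean WDR5 percentile over the DMSO lists, up to 10 with peaks in at least 14 lists, and up to 5 listed pairs without N-MYC. The members and gene lists were chosen with earlier results of these data known. Counting was tested on simulated peaks. Python 3.11.15 with pandas 2.3.3 was used.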

Additional observations from a re-analysis of the deposited data

How the results depend on the processing

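Of 147 alternative values, 114 stayed within the spread between libraries or 1.5 times the main count, 26 moved beyond it and 7 changed sign. The cause of a change was not tested unless its construction shows it. In points above other coding promoters (29.4 for N-MYC in DMSO, 25.5 in IMR-32, 10.7 for WDR5 in DMSO and 9.66 in IMR-32), the differences were 8.71, 12.8, 2.39 and 4.70 against promoters with a divergent lncRNA alone. With equal numbers of peaks N-MYC differed by 10.98 and 13.03, and with a −log10 q of 5 or more the IMR-32 differences were 18.7 for N-MYC and 6.96 for WDR5. Leaving out each library gave 27.0 to 32.3 and 21.3 to 29.7 for N-MYC, and 7.24 to 12.8 and 7.79 to 11.5 for WDR5.

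Consensus counts depended on the lists required. A peak in any list gave 530 N-MYC regions, 194 WDR5 regions and 144 cobound regions in IMR-32, and 358 WDR5 and 333 cobound regions in DMSO, where all lists gave 72 and 64. A −log10 q of 5 or more gave 94 WDR5 and 79 cobound regions in DMSO and 40 cobound regions in IMR-32. Leaving out a DMSO library gave 447 to 564 for N-MYC, 76 to 111 for WDR5 and 70 to 133 for cobound regions, the lowest of the last both without WDR5 replicate 1. In IMR-32, with 2 lists, neither could be run.

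The percentile difference was -0.53 for IMR-32 N-MYC and 0.96 for DMSO WDR5 by q-value, and -0.86 to 0.49 for DMSO WDR5 without single libraries, so it had no stable sign. The DMSO N-MYC share between the TSSs was 48.6% with a −log10 q of 5 or more, 47.4% over every summit and 48.8% without ribosomal protein pairs. The looser motif CANNTG was in 98.8% of divergent regions, and summits within 50 bp of CACGTG made up 56.4% in DMSO and 61.4% in IMR-32.

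With equal numbers of peaks the compound minus DMSO difference for N-MYC went from -14.4 to 0.75 points, and IMR-32 minus CHP-134 from -18.5 to 1.10 for N-MYC and from -5.01 to 3.15 for WDR5. Leaving out single libraries gave -21.7 to -1.30 for the compound and N-MYC, -17.2 to -2.12 for WDR5, -25.9 to -11.1 between lines for N-MYC and -8.37 to 1.49 for WDR5, the last without CHP-134 WDR5 replicate 1. With the replicate number as a replicate block, the differences were -14.4 ± 13.8 and -8.62 ± 4.16 for the compound, and -18.0 ± 6.10 and -8.37 ± 10.1 between lines. Nothing in the labels says that libraries of a number share a culture or day. Counting 1 pair per locus, leaving out ribosomal protein pairs and leaving out replicate 2 of the compound were chosen after the data were seen.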
